A study of Mus musculus with 18 samples.

Results

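At embryonic day (E) 6.75 of mouse development, 18 cells held transcripts of both Mesp1 and Foxa2, and they were compared with 29 cells that held Mesp1 alone and 59 that held Foxa2 alone. These 106 cells came from 3 of the 18 libraries of the series, the E6.75 libraries 2_9, 2_13 and 2_14, and were drawn from 247 kept cells among 288 used barcodes (1728 in the whole series). A cell was kept when it held at least 2000 transcripts of nuclear genes and fewer than 5 per 10000 from Ttr, Apoa1 and Spink1, genes of visceral endoderm. It counted as positive for a gene from 1 transcript on. Library 2_9 gave 2 double-positive, 3 Mesp1-only and 18 Foxa2-only cells, library 2_13 gave 11, 15 and 25, and library 2_14 gave 5, 11 and 16. The remaining 141 kept cells, which held neither gene, are the double-negative cells given for reference.

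All groups were wild-type C57BL/6 cells with no treatment. The extraembryonic part of each embryo was removed, the embryo was dissociated on its own, and cells were picked by hand and read by CEL-Seq2, which gives every cell a barcode and every transcript molecule an identifier. The embryo of each cell is not given in the sources used here, so the library was the replicate. P-values measure how group differences vary over 3 libraries, a spread that may be technical, with level differences between libraries taken up by a block. Embryo and library cannot be told apart.

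Mesp1 encodes a basic helix-loop-helix transcription factor that is switched on in nascent mesoderm leaving the primitive streak, and its descendants include the heart. Foxa2 encodes a forkhead transcription factor that marks definitive and visceral endoderm as well as the axial mesoderm of the midline. Eomes and T (Brachyury) are T-box factors of the streak, the region of the epiblast from which mesoderm and definitive endoderm both arise. The series title names the segregation of these lineages as its subject, and cells with transcripts of both genes bear on where in that sequence the genes are found together. On GRCm38, Mesp1 is annotated at chr7:79792241-79793788 and Foxa2 at chr2:148042877-148046969, both protein-coding genes on the minus strand.

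The double-positive cells rarely held much of both transcripts. Mesp1 ranged from 1 to 114 transcripts per cell with a median of 2, and Foxa2 from 1 to 27 with a median of 2.5. Exactly 1 transcript of at least 1 of the genes was found in 9 of the 18 cells, and in 3 cells both genes were at 1. Both reached 2 transcripts in 9 cells and 5 transcripts in 1 cell, of library 2_14, with 6 of Mesp1 and 27 of Foxa2. More than 10 of both were found in 0 cells. The Mesp1-only cells held 1 to 72 Mesp1 transcripts (median 4), with 12 of 29 cells at 1 and 10 over 10. The Foxa2-only cells held 1 to 83 Foxa2 transcripts (median 2), with 24 of 59 cells at 1 and 18 over 10. These levels chose the cells, so they are a description.

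**Figure D1:**
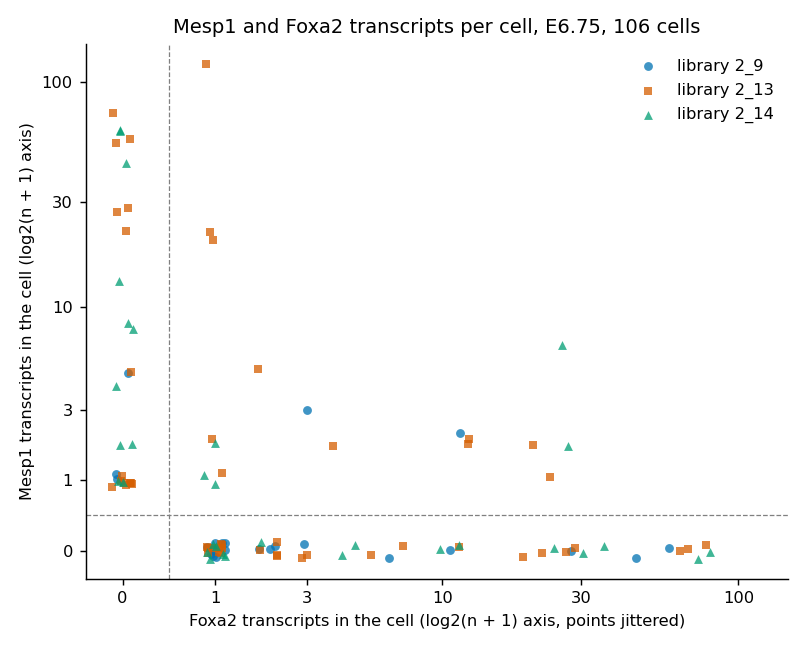
Transcripts of Foxa2 (x axis) and Mesp1 (y axis), both on a log2(n + 1) axis with jittered points, in each of the 106 cells, coloured by library. Dashed lines separate cells with and without each gene, and of the double-positive cells in the upper right 3 exceed 10 Mesp1 transcripts, 7 exceed 10 Foxa2 transcripts and 0 exceed 10 of both.

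Mesp1 was also counted in the 37 cells left out as visceral endoderm. Of these 37 cells, 3 held Mesp1 (8.11%, exact Clopper-Pearson 95% interval 1.70% to 21.9%) at a median depth of 23368 transcripts, against 19.0% of the kept cells at 53182. Among the 32 of them at 15 or more visceral endoderm transcripts per 10000, 0 held Mesp1, which allows a share of up to 9.38%. Intervals and limits of this kind cover counting error only. Foxa2, a gene of visceral endoderm too, was found in 29 of the 37. The 3 cells with Mesp1 lay just outside the limit of 5 per 10000, at 6.91, 8.76 and 10.9, and held Foxa2 as well. They held 15, 7 and 1 Mesp1 transcripts in the same order, so the 8.11% is not given as a background rate. The nearest double-positive cells inside the limit were at 3.21, 1.24 and 1.03. Libraries 2_9 and 2_13 shared 48 used barcodes, as did 2_9 and 2_14, but 0 barcodes of double-positive cells were shared. Both genes were also seen in unused barcodes of library 2_13, Foxa2 in 7 (7 transcripts in all) and Mesp1 in 1 (2 transcripts). Of these unused barcodes, 6 reached 2000 transcripts, the highest at 8775. In 2_9 and in 2_14, 0 unused barcodes held either gene and 0 reached 2000. Whether such transcripts also reached used barcodes was not tested.

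Depth did not set the double-positive cells apart in all libraries. Their median depth was 139395 transcripts in 2_9, 64713 in 2_13 and 42232 in 2_14. The Mesp1-only cells were at 48499, 66353 and 61109 and the Foxa2-only cells at 43192, 67623 and 62958. Double-positive cells were thus deeper in 1 of 3 libraries, 2_9, where 1 of the 2 cells held 206140 transcripts. The mean log2 difference of the medians was 0.32 (SD 1.07, n = 3) from Mesp1-only and 0.35 (SD 1.19, n = 3) from Foxa2-only cells, with p = 1 in both exact two-sided sign-flip permutation tests, where 3 libraries cannot go below 0.25. The number of double-positive cells depended on depth: when each cell was thinned to 10000 transcripts before grouping, 3 double-positive cells were left. The median mitochondrial share was 15.5% in double-positive, 13% in Mesp1-only, 13.6% in Foxa2-only and 15.0% in double-negative cells.

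Against Foxa2-only cells, the double-positive cells held more transcripts of 12 genes, among them T and Fst of the streak list, Mesp2 of the mesoderm list, Snai1 and Cdh11 of the mesenchymal list and Fgf3 of the FGF list. Most genes of these lists were not called. Rounded transcripts were summed per library and group (213880 to 1643742 per sum) and compared in edgeR's quasi-likelihood test with the library as a block and Benjamini-Hochberg adjustment, without Mesp1 and Foxa2. Of 8373 genes tested, 13 passed an adjusted p of 0.05 (0.155%), with 12 higher (0.143%) and 1 lower (0.0119%) in double-positive cells. The median log2 fold change of all genes tested was -0.01.

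T is the streak gene that differed most clearly. Its level in CPM, a gene's transcripts scaled to the same total in every sum, was 112 in 2_9, 360 in 2_13 and 769 in 2_14 in the double-positive sums, and 18.4, 140 and 112 in the Foxa2-only sums. The double-positive value was higher in each library, although the ranges over libraries overlap. The log2 fold change of T was 2.08 (SE 0.21, adjusted p = 1.66e-05). Fst, which encodes follistatin, an inhibitor of activin, was at 96.7, 443 and 702 CPM against 88.3, 203 and 178, a log2 fold change of 1.28 (SE 0.24, adjusted p = 0.0163). T and Fst were the 2 genes called among 14 tested of 20 streak genes, whose median log2 fold change was 0.66.

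Snai1, a repressor of E-cadherin in the epithelial to mesenchymal transition, was at 52.1, 172 and 98.0 CPM in double-positive and 20.8, 34.9 and 12.1 CPM in Foxa2-only sums, with no overlap. Its log2 fold change was 2.26 (SE 0.29, adjusted p = 0.000324). The mesenchymal cadherin gene Cdh11 was at 7.44, 69.4 and 78.4 CPM against 0, 9.62 and 33.4 (log2 fold change 2.08, SE 0.35, adjusted p = 0.0118). These were the 2 called of 14 tested mesenchymal genes (median 0.72). Fn1, the fibronectin gene, was at 52.1, 310 and 161 CPM against 42.9, 84.2 and 63.8, and its log2 fold change of 1.45 (SE 0.33) missed the threshold (adjusted p = 0.14).

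Mesp2, the neighbouring paralog of Mesp1, had 22 transcripts in all double-positive sums and 1 in all Foxa2-only sums. As a ratio of CPM this was 59.1, with a 95% counting interval of 9.55 to 2438, and the edgeR adjusted p was 0.0167. Most of the double-positive Mesp2 transcripts came from the 3 cells with over 10 Mesp1 transcripts, all of library 2_13. Without these 3 cells the log2 fold change of Mesp2 fell from 5.05 to 3.14, and Mesp2 was not called. Mesp1 and Mesp2 lie 16938 bases apart on chromosome 7, on opposite strands, and share sequence, and how the authors' counting treats such paralogs is not given. Mesp2 was the 1 mesoderm gene called of 17 tested among 28 listed, whose median log2 fold change was 1.73. Mixl1 (29.8, 295 and 220 CPM against 3.68, 116 and 214), Lefty2 (14.9, 131 and 153 against 47.8, 16.8 and 19.2) and Pdgfra (3.72, 51.1 and 0 against 0, 10.8 and 3.04) were not called.

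Fgf3, a fibroblast growth factor gene, had 33 transcripts in double-positive and 4 in Foxa2-only sums. The ratio of CPM was 22.2 (counting interval 7.88 to 86.1), and the log2 fold change was 4.07 (SE 0.69, adjusted p = 0.0118). Most of the double-positive Fgf3 transcripts also came from the 3 cells with over 10 Mesp1 transcripts, all of library 2_13. Without these 3 cells the log2 fold change of Fgf3 was 2.39, and Fgf3 was not called. In library 2_9, both Mesp2 and Fgf3 were at 0 in all 3 groups. Fgf3 was the 1 gene called of 17 FGF genes tested. The other genes higher in double-positive cells were Meis2 (log2 fold change 2.5, SE 0.45), Chst2 (2.05, SE 0.41), Gas1 (1.69, SE 0.31), Dlc1 (1.4, SE 0.26), Malat1 and Mid1. Gas1 was at 22.3 CPM in double-positive and 28.2 in Foxa2-only cells of 2_9, so it was higher in 2 of 3 libraries.

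Trh, the thyrotropin-releasing hormone gene, was the 1 gene lower in double-positive cells. It was at 63.2, 43.2 and 15.7 CPM against 83.4, 124 and 156, a log2 fold change of -1.55 (SE 0.31, adjusted p = 0.0318). It was also the 1 gene called of 9 tested among 28 endoderm and axial genes (median -0.11). None of the 20 epiblast genes tested passed (median -0.22), nor of the 16 epithelial (median -0.21), 21 WNT (median 0.48), 18 NODAL (median 0.01) and 14 BMP genes (median 0.03).

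The calls against Foxa2-only cells depend on few cells. Without the library block, 0 of 7880 genes passed, with 372 at an unadjusted p under 0.05 against 476 with it. DESeq2 called 4 of the 13 genes (T, Snai1, Cdh11 and Malat1), and with each cell thinned to 10000 transcripts T was the 1 gene called of 3124 tested. Without library 2_13, which held 11 of the 18 cells, 5 genes passed, 4 of them among the 13 (T, Snai1, Malat1 and Mid1), while 11 of the 13 passed without 2_9, where Mid1 was at 1.06 (adjusted p = 0.17), and 8 without 2_14.

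**Figure D2:**
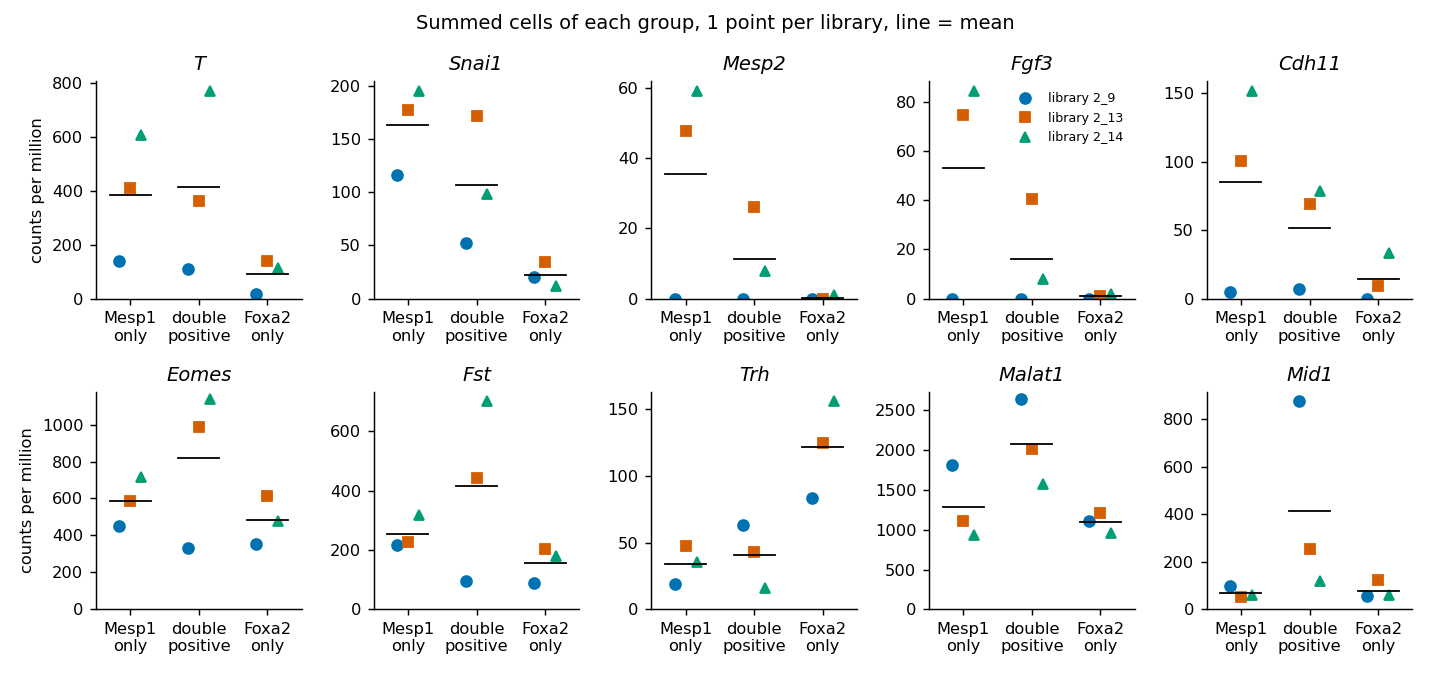
Level in CPM (y axis, linear) of 10 genes in the Mesp1-only, double-positive and Foxa2-only sums, with 1 point per library and a line at the mean. Snai1 shows no overlap between double-positive and Foxa2-only sums, and for T the double-positive range overlaps the Mesp1-only range and extends past it at both ends.

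Against Mesp1-only cells, 2 of the 8373 genes passed (0.0239%), both higher in double-positive cells, and neither is a gene of the lineage lists. An unadjusted p under 0.05 was reached by 471 genes. The first was Malat1, a long noncoding RNA kept in the nucleus, at 2642, 2013 and 1569 CPM in double-positive and 1815, 1106 and 931 CPM in Mesp1-only sums. It was higher in each library, with a log2 fold change of 0.72 (SE 0.12, adjusted p = 0.0307). The second was Mid1, an X-linked ubiquitin ligase gene, at 874, 253 and 118 CPM against 96.8, 53.9 and 58.9, with no overlap. Its log2 fold change was 2.34 (SE 0.39, adjusted p = 0.0307). Mid1 reached its highest level in library 2_9, where the double-positive sum came from 2 cells.

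T did not differ detectably between double-positive and Mesp1-only cells, with a log2 difference of 0.03 (SE 0.20, adjusted p = 0.998). Its Mesp1-only level was 140, 409 and 606 CPM. Of 17 mesoderm genes tested 0 were called, at a median log2 difference of -1.30 against -0.003 over all genes tested. Snai1 was at 116, 178 and 195 CPM in Mesp1-only cells (log2 difference -0.59, SE 0.25, adjusted p = 0.851). Peg3, an imprinted gene, came near the threshold, at 126, 403 and 490 CPM in double-positive against 198, 699 and 798 CPM in Mesp1-only sums (log2 difference -0.74, SE 0.14, adjusted p = 0.0572). The pluripotency factor gene Sox2 was at 153, 103 and 106 CPM against 62.9, 49.0 and 62.3, with no overlap, but its log2 difference of 1.02 (SE 0.23) did not pass either (adjusted p = 0.504). Neither call held without the library block, where 0 genes passed and 334 had an unadjusted p under 0.05. With cells of at least 20000 transcripts 0 genes passed as well, where Malat1 had an adjusted p of 0.0546 and Mid1 of 0.0598. Malat1 missed the threshold without 2_13 (0.65, adjusted p = 0.531) and without 2_14 (0.71, adjusted p = 0.11).

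To ask where double-positive cells stand between both single-positive groups, their log2 level was also compared with the midpoint of the other two. Here 3 genes passed (0.0358%), T, Malat1 and Mid1, all above the midpoint. T lay 1.05 above it (SE 0.18, adjusted p = 0.0168), with Mesp1-only cells 2.05 (SE 0.21, adjusted p = 5.33e-06) above Foxa2-only cells. Malat1 lay 0.81 above the midpoint (SE 0.10, adjusted p = 0.000856) and Mid1 2.18 (SE 0.31, adjusted p = 0.00193), whereas the single-positive groups did not differ detectably in Malat1 (0.16, adjusted p = 0.904). T missed the threshold without 2_9 (1.05, adjusted p = 0.0885) and without 2_14 (0.71, adjusted p = 0.587). Eomes was at 331, 989 and 1137 CPM in double-positive, 450, 584 and 717 in Mesp1-only and 356, 614 and 481 in Foxa2-only sums. In 2 of 3 libraries the double-positive cells were the highest in Eomes, but it passed in neither comparison (adjusted p = 0.833 against Mesp1-only, 0.17 against Foxa2-only).

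In single cells, Malat1 was at 5.22 to 45.2 transcripts per 10000 in the double-positive cells (median 17.9). The median was 10.5 in Mesp1-only, 10.3 in Foxa2-only and 12.9 in double-negative cells, whose highest cell reached 121. By library, the mean of double-positive cells was 24.9, 19.7 and 15.2 and that of double-negative cells 23.8, 13.4 and 16.2, so double-positive cells were not the highest in Malat1 in library 2_14. The median mitochondrial share of double-positive cells was 13.6% in 2_9, 17.6% in 2_13 and 12.4% in 2_14, against 11.8%, 13.2% and 13% in Mesp1-only and 12.9%, 13.1% and 14% in Foxa2-only cells, so it was higher in 2 of 3 libraries. Its part in the result was not tested. Without the cells over 30% mitochondrial, which include 1 double-positive cell at 44.0%, Malat1 lay 0.68 above Mesp1-only cells (adjusted p = 0.0716). Malat1 and Mid1 overlap genes on the opposite strand, and strand use in counting is not given, so such reads cannot be told apart. The same holds for Fst, Gas1, Eomes, Fn1 and Gata6. Malat1, Cdh11 and Sox2 overlap genes on their own strand, and how the counting treats such reads is not given either.

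The double-positive cells were not alike. The sets that follow were drawn after the values were seen, from the transcripts that chose the cells, and get no test. More than 10 Mesp1 transcripts were held by 3 cells, all of library 2_13, with 21, 21 and 114 of Mesp1 and 1 of Foxa2 each. Unused barcodes of this library held Foxa2 as well, as given above. More than 10 Foxa2 transcripts were held by 7 cells (1, 4 and 2 in the 3 libraries), with 12 to 27 of Foxa2 and 1 to 6 of Mesp1. The other 8 cells (1, 4 and 3) held 1 to 5 of Mesp1 and 1 to 4 of Foxa2. Depth ranged from 37647 to 114583 transcripts in the first set, 21254 to 103489 in the second and 19441 to 206140 in the third.

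The 3 Mesp1-rich cells held the most transcripts of several nascent mesoderm genes, but not of all. Snai1 was at 3.53 to 5.01 transcripts per 10000 in them, at 0 to 1.99 in the 7 Foxa2-rich cells and at 0 to 0.46 in the other 8, so the first set did not overlap the others. Pdgfra, a receptor gene of early mesoderm, was at 0.99 to 1.59 in the 3 cells and at most 0.47 elsewhere. The same gap was seen for the cardiogenic factor gene Gata4, at 0.77 to 4.04 against at most 0.47. Kdr, a receptor gene of blood and vessel precursors, was found in 3 of 3 Mesp1-rich cells, 0 of 7 Foxa2-rich cells and 0 of the other 8. Fn1 had a median of 11.3 in the Mesp1-rich cells, 0.69 in the Foxa2-rich cells and 0.88 in the others. Frzb, also of the mesoderm list, was at 0.55 to 6.66 in the Mesp1-rich cells and at most 0.41 elsewhere. Several other mesoderm genes showed no such gap. Mesp2, Lefty2, Gata6 and Ifitm1 overlapped between the sets, with Lefty2 at 0.55 to 5.33 in the Mesp1-rich and 0 to 5.58 in the Foxa2-rich cells. Etv2 had a median of 0 in the Mesp1-rich and 0.17 in the Foxa2-rich cells. The 3 Mesp1-rich cells gave 18.7% of all double-positive transcripts.

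The 7 Foxa2-rich cells resembled them in the streak factor Eomes but in few mesoderm genes. Eomes had a median of 15.6 per 10000 in these cells (4.42 to 19.5), 15.8 in the Mesp1-rich cells (8 to 17.3) and 4.24 in the other 8 (0.31 to 15.5). Mixl1, a homeobox gene of the streak, had medians of 2.13, 5.86 and 0.20 in the same order, and T of 2.62, 8.66 and 0.83. The 8 cells low in both genes had the highest medians of the epiblast genes Utf1, Sox2, Fgf5 and Eras, but not of Nanog, Pou5f1 and Otx2. Utf1, a chromatin factor gene of pluripotent cells, had a median of 5.06 in them, 1.07 in the Foxa2-rich and 0.27 in the Mesp1-rich cells. Sox2 had medians of 1.44, 0.64 and 0.09, Fgf5 of 2.02, 1.55 and 0.27, and Eras of 0.57, 0.41 and 0.09. The pluripotency factor gene Nanog had medians of 0.82, 2.35 and 1.31 in the same order, and Pou5f1 of 5.19, 5.34 and 6.16. Malat1 had medians of 22.6, 17.7 and 8.57, so its high level lay outside the Mesp1-rich cells.

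**Figure D3:**
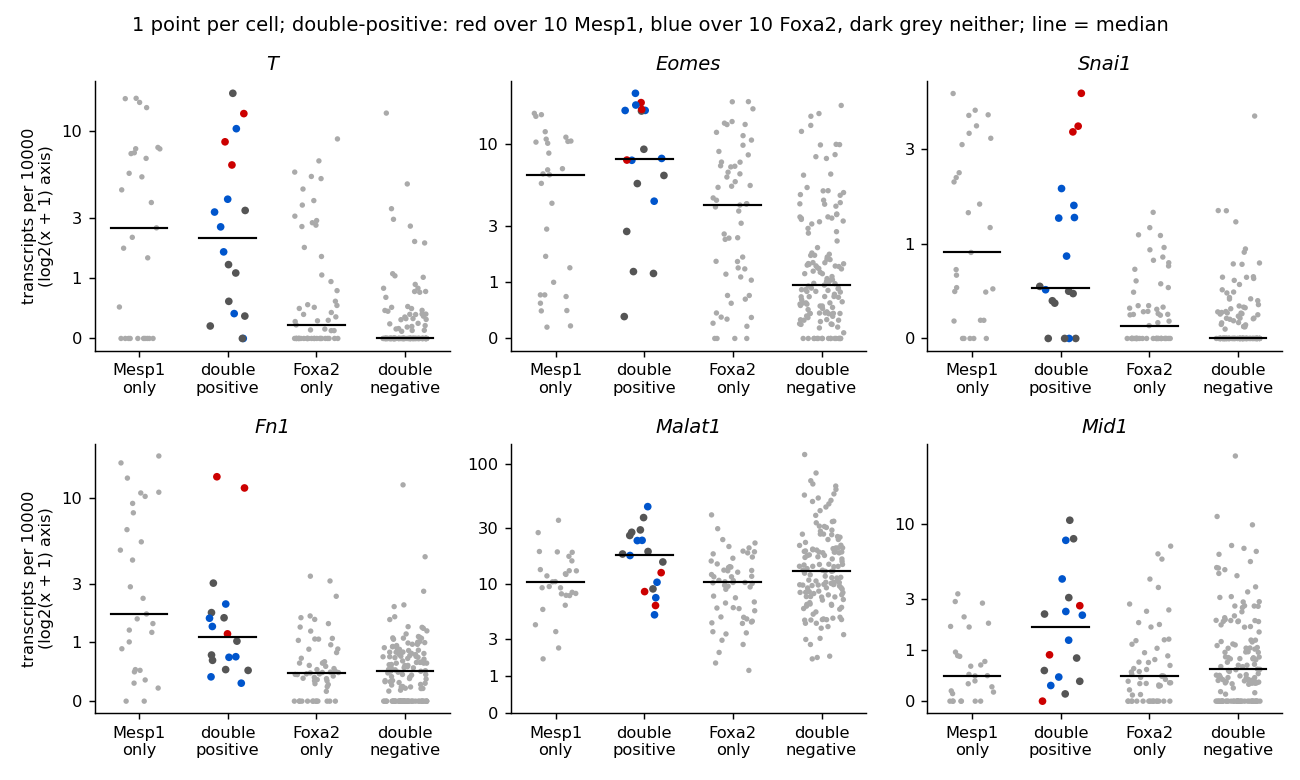
Transcripts per 10000 (y axis) of T, Eomes, Snai1, Fn1, Malat1 and Mid1 on a log2(x + 1) axis in each cell of the Mesp1-only, double-positive, Foxa2-only and double-negative groups, with a line at the median. Among the double-positive cells, red marks the 3 with over 10 Mesp1 transcripts, blue the 7 with over 10 Foxa2 transcripts and dark grey the other 8, and the red points lie highest in Snai1.

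Over all cells of a group, the levels overlapped widely. T was at 0 to 15.9 per 10000 in double-positive cells (median 2.17), 0 to 14.9 in Mesp1-only cells (median 2.58) and 0 to 8.98 in Foxa2-only cells (median 0.17). It was found in 16 of 18, 19 of 29 and 34 of 59 cells. After thinning each cell to 10000 transcripts, T was found in 11 of 18, 17 of 29 and 24 of 55, and Eomes in 17 of 18, 24 of 29 and 44 of 55. Without thinning, detection also follows depth. At full depth Eomes was found in all 18 double-positive cells, at a median of 8.09, against 6.51 in Mesp1-only, 4.17 in Foxa2-only and 0.93 in double-negative cells. Snai1 had medians of 0.45, 0.88 and 0.10 in double-positive, Mesp1-only and Foxa2-only cells.

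Because the 3 Mesp1-rich cells stood apart, the comparisons were repeated without them, a choice made after seeing the data. With 15 double-positive cells left (2, 8 and 5), 2 genes differed from Foxa2-only cells (0.026% of 7694), Malat1 and Mid1, at log2 fold changes of 0.99 and 2.13. T lay 1.45 above Foxa2-only cells (SE 0.41, adjusted p = 0.646) and Snai1 1.42 (SE 0.34, adjusted p = 0.607), so neither passed. Against Mesp1-only cells, 17 genes passed (0.221%), 4 higher and 13 lower. The Mesp1-only group kept its 10 cells of over 10 Mesp1 transcripts here, so this comparison follows the Mesp1 levels that chose the cells, and its genes are a description. Malat1, Mid1 and Sox2 were among the higher ones, and Fn1, Gata4, Gata6, Pdgfra, Frzb and Kdr among the lower ones. Fn1 was at 50.3, 90.3 and 157 CPM in double-positive and 28.1, 557 and 651 CPM in Mesp1-only sums. Kdr was at 0 in all 3 double-positive sums.

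A stricter call of positive cells, from 2 transcripts on, gave 9 double-positive cells (2, 5 and 2), 17 Mesp1-only cells (1, 7 and 9) and 35 Foxa2-only cells (9, 16 and 10). This rule removes all 3 Mesp1-rich cells, whose Foxa2 was at 1, and also the Mesp1-only cells with 1 transcript. Of 6678 genes tested, 51 then differed between double-positive and Mesp1-only cells (0.764%), 21 higher and 30 lower. Against Foxa2-only cells 0 passed, with 235 at an unadjusted p under 0.05.

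The comparison with Mesp1-only cells again follows the Mesp1 levels that chose the cells: the 9 double-positive cells held 2 to 6 Mesp1 transcripts, whereas 10 of the 17 Mesp1-only cells held over 10. The levels are therefore given as a description. Of 14 mesoderm genes tested, 9 were among those lower than in Mesp1-only cells (Frzb, Gata4, Gata6, Ifitm1, Kdr, Lefty2, Mesp2, Pdgfra and Phlda2), with a median log2 difference over the 14 of -3.25 against 0.02 over all genes. Pdgfra was at 3.59, 12 and 0 CPM in double-positive and 0, 168 and 142 CPM in Mesp1-only sums, where 2_9 had 1 Mesp1-only cell. Of 11 mesenchymal genes, Efna3, Fn1 and Snai1 were among the lower ones. Fn1 was at 50.3, 69.1 and 96.2 CPM in double-positive, 41.3, 1024 and 764 in Mesp1-only and 45.3, 77.8 and 61.9 in Foxa2-only sums, so that the double-positive range overlapped the Foxa2-only range.

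Of 18 epiblast genes, 7 were among those higher than in Mesp1-only cells (Dnmt3b, Fgf5, L1td1, Pim2, Pou3f1, Slc7a3 and Utf1) and 11 were not called. Of 14 epithelial genes, Cdh1, Cldn6 and Podxl were among them and 11 were not called. Cldn6, a claudin gene of tight junctions, was at 197, 216 and 110 CPM in double-positive, 82.6, 32.2 and 48.0 in Mesp1-only and 199, 219 and 157 in Foxa2-only sums. Utf1 was at 689, 243 and 89.3 CPM against 124, 34.6 and 86.0 in Mesp1-only cells. T was at 108, 84.1 and 577 CPM in double-positive and 454, 824 and 624 CPM in Mesp1-only sums, with overlap.

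The place of the double-positive cells on the axis between the single-positive groups was taken from genes that differed between those groups. There were 69 such genes (0.824%), 53 higher in Mesp1-only cells (0.633%) and 16 higher in Foxa2-only cells (0.191%). Place is the double-positive minus Foxa2-only log2 fold change divided by the Mesp1-only minus Foxa2-only one, so that 0 is the Foxa2-only and 1 the Mesp1-only level. Both share the Foxa2-only sums, so place is a description with no test. Its median was 0.58, and 43 of 69 genes lay above 0.5. The median was 0.61 for genes higher in Mesp1-only cells and 0.42 for genes higher in Foxa2-only cells.

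The genes were spread along the axis. T lay at the Mesp1-only end, while Gata6, a factor gene of mesoderm and endoderm, was at 0.26, with 7.44, 30.1 and 11.8 CPM in double-positive, 0, 115 and 138 in Mesp1-only and 1.23, 4.21 and 39.5 in Foxa2-only sums. Sox2 lay at 0.07, near the Foxa2-only end, where Foxa2-only sums held 126, 136 and 105 CPM. By library, the mean double-positive minus Foxa2-only difference over the 69 genes, divided by the mean Mesp1-only minus Foxa2-only one, was 0.55 in 2_9, 0.66 in 2_13 and 0.28 in 2_14 (SD 0.193, n = 3). Without 2_13, 28 genes differed between the single-positive groups, and without 2_14 43 did. Without the 3 Mesp1-rich cells, median place was 0.23 and 14 of 67 genes lay above 0.5. From 2 transcripts on it was 0.15, with 3 of 66 genes above 0.5. Under both rules the Mesp1-only group kept its 10 cells of over 10 Mesp1 transcripts, while the double-positive group had none left. This shift thus follows the Mesp1 levels that chose the cells and is a description.

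**Figure D4:**
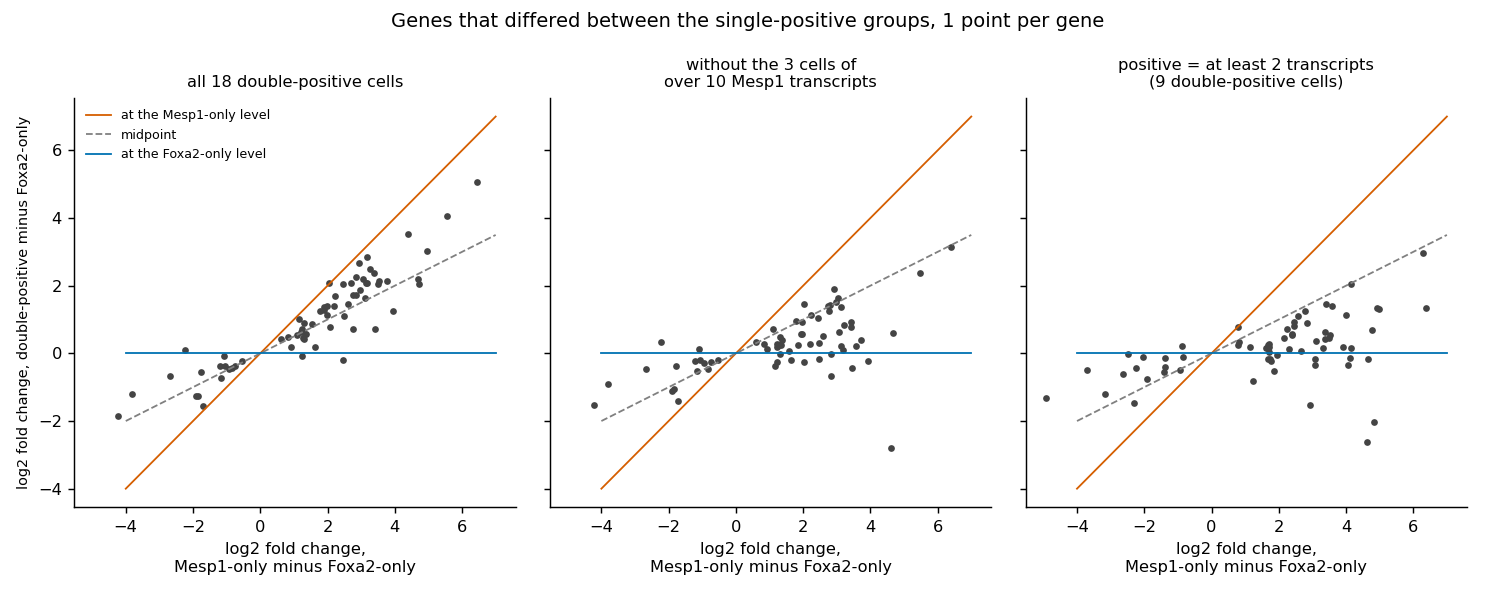
Double-positive minus Foxa2-only log2 fold change (y axis) against Mesp1-only minus Foxa2-only log2 fold change (x axis) for genes that differ between the single-positive groups, under 3 definitions of the cells, with lines at the Mesp1-only level, the midpoint and the Foxa2-only level. The points lie around the middle between both groups with all 18 cells (median place 0.58) and nearer to the Foxa2-only level without the 3 cells of over 10 Mesp1 transcripts (0.23) and from 2 transcripts on (0.15). The last 2 definitions keep cells of over 10 Mesp1 transcripts in the Mesp1-only group alone, so the shift follows the levels that chose the cells.

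Streak genes, summed per cell, had a median of 26.6 transcripts per 10000 in double-positive cells (1.70 to 71.5), 33.3 in Mesp1-only, 12.2 in Foxa2-only and 4.90 in double-negative cells. Mesenchymal genes had medians of 6.70, 13.2, 4.35 and 3.49 and mesoderm genes of 3.24, 3.08, 1.86 and 1.70 in the same order. Epiblast genes ran the other way, at 63.8, 50.3, 70.9 and 84.5. For mesoderm genes the means by library were 2.46, 7.37 and 5.58 in double-positive and 2.03, 10.6 and 17.3 in Mesp1-only cells. These means were thus lower in double-positive cells in 2_13 and 2_14, unlike the medians over all cells. In library 2_9 the double-positive cells were low in streak genes, with a mean of 13.1 against 34.5 in 2_13 and 36.8 in 2_14. Library 2_9 was also the lowest in the other groups. Their means in the same order were 22.8, 28.7 and 36.7 in Mesp1-only, 9.25, 20.4 and 21.7 in Foxa2-only and 6.28, 7.80 and 9.35 in double-negative cells. The ranges of single cells overlapped between all groups in these 4 lists.

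**Figure D5:**
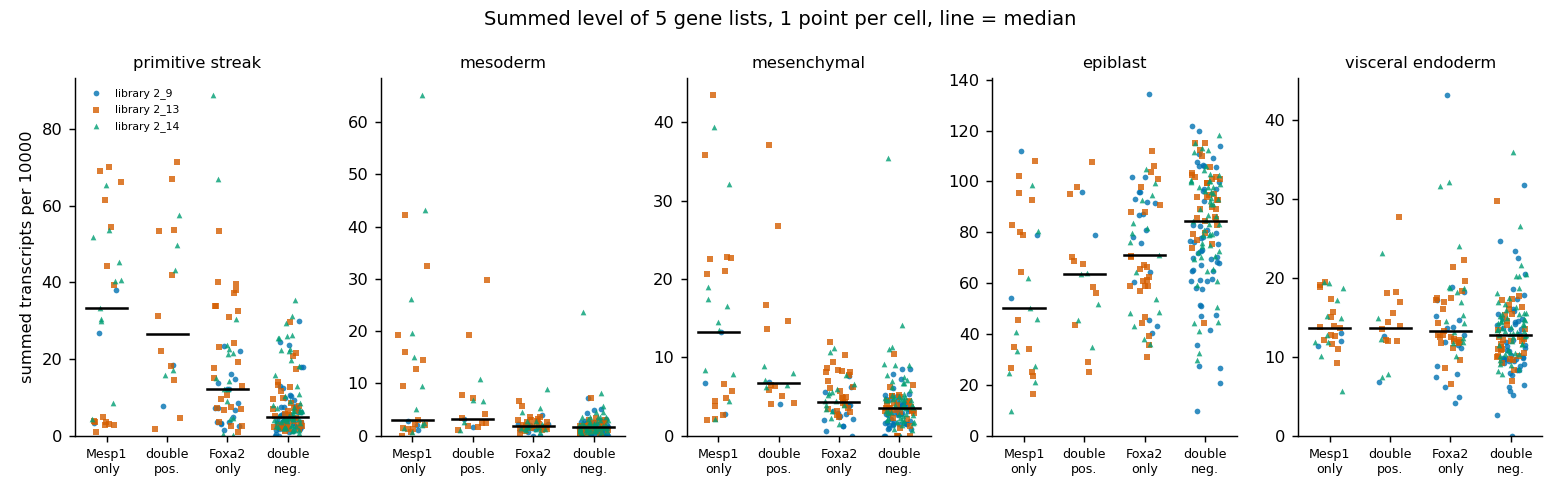
Summed transcripts per 10000 (y axis) of streak, mesoderm, mesenchymal, epiblast and visceral endoderm genes in each cell of the 4 groups, coloured by library, with a line at the median. Double-positive cells lie between the single-positive groups in the median of streak, mesenchymal and epiblast genes, and the visceral endoderm medians range from 12.7 to 13.7.

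Markers of other cell types differed little between the groups in their medians. Visceral endoderm genes beyond the 3 used for the limit summed to a median of 13.7 per 10000 in double-positive cells (6.76 to 27.7), 13.6 in Mesp1-only, 13.3 in Foxa2-only and 12.7 in double-negative cells, and 5 of the 20 were not seen in double-positive cells. Of its defining genes, Afp was found in 4 of 18 double-positive cells, Amn in 3 and Hnf4a in 2. Afp was found in 1 of 29 Mesp1-only, 4 of 59 Foxa2-only and 7 of 141 double-negative cells, and Amn in 2, 0 and 11. The shares of cells with Afp and with Amn were thus highest in double-positive cells. Extraembryonic ectoderm genes summed to at most 5.66 per 10000 in double-positive cells, 5 of 15 were not seen, and Elf5 was found in 0 of 18 cells. The highest sums of these genes were 7.08 in Mesp1-only, 36.0 in Foxa2-only and 25.8 in double-negative cells. Blood and endothelial genes summed to at most 0.61 in double-positive cells, although Mesp1-only cells reached 36.2. None of the visceral endoderm (5 tested), extraembryonic ectoderm (4), germ cell (3), neural (5) and blood genes (2) was called in either double-positive comparison, nor were S phase (15), G2/M (15) or immediate early genes (12).

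The endoderm genes Sox17, Hhex and Cer1 were found in few of the double-positive cells. Sox17, a factor gene, was found in 2 of 18 double-positive, 1 of 29 Mesp1-only and 3 of 59 Foxa2-only cells. Hhex, a homeobox gene of anterior endoderm, was found in 0 of 18, which allows a share of up to 16.7%, and in 4 of 29 and 5 of 59. Cer1, a secreted NODAL and BMP inhibitor gene, was found in 1, 1 and 5 cells. In the 37 cells left out as visceral endoderm, which express these genes, the counts were 12, 20 and 22.

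Chrd, a BMP antagonist gene of the organizer, was found in 4 of 18 double-positive cells (22.2%), 2 of 29 Mesp1-only cells (6.90%) and 13 of 59 Foxa2-only cells (22.0%). Foxa1, a paralog of Foxa2, was found in 3, 1 and 11 cells. Gsc, a homeobox gene of the anterior streak and organizer, was found in 11 of 18, 16 of 29 and 28 of 59 cells, and in 32 of 141 double-negative cells. After thinning each cell to 10000 transcripts, Gsc was found in 6 of 18, 6 of 29, 15 of 55 and 8 of 117. Lhx1, a LIM homeobox gene of the same region and of mesoderm, was at 37.2, 156 and 27.4 CPM in double-positive, 14.5, 380 and 424 in Mesp1-only and 3.68, 13.2 and 232 in Foxa2-only sums, with wide overlap. Neither Gsc nor Lhx1 passed in a double-positive comparison, and the other 5 were too low to be tested.

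Double-positive cells were found in no other E6.75 library. Libraries 1_10, 1_11 and 2_12 held 0 cells with Mesp1, 20 with Foxa2 alone and 228 with neither, and 0 double-positive cells of 248 allow a share of up to 1.21%. In the 3 libraries described here, 18 of the 47 cells with Mesp1 also held Foxa2 (38.3%, 95% interval 24.5% to 53.6%). By library the share was 40% in 2_9, 42.3% in 2_13 and 31.3% in 2_14. Of the 77 cells with Foxa2, 23.4% (14.5% to 34.4%) also held Mesp1.

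At E7.5, where cells were sorted by flow cytometry and read by mCEL-Seq2, 12 of 137 cells with Mesp1 held Foxa2 (8.76%, 4.61% to 14.8%), and 12 of 60 cells with Foxa2 held Mesp1 (20%, 10.8% to 32.3%). These 12 cells came from 5 of 11 libraries. Their Mesp1 ranged from 1 to 28 transcripts (median 3.5) and their Foxa2 from 1 to 19 (median 1), with exactly 1 of either gene in 10 of them and both at 2 or more in 2. The kept cells had a median depth of 53182 transcripts at E6.75 and 31203 at E7.5, and the way of collecting cells and the protocol also differed between the stages. Stage and these differences cannot be told apart, and the difference in shares was not tested.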

How the data were processed

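Single-cell CEL-Seq2 libraries of E6.75 mouse embryos were used, with 96 used barcodes among 192 columns each. The authors deposited expected counts of transcripts per gene and barcode, and every value tested equals a collision correction of observed molecules over 4096 identifiers. Reads were processed with bcl2fastq 2.17.1.14 and BWA 0.6.2-r126, per the submitters' processing notes. The genome build, the annotation and strand use are not given in the sources used here. Coordinates are from GENCODE on GRCm38. Expected counts were rounded to whole numbers and summed per library and group over nuclear genes, without spike-ins and mitochondrial genes. The 9 sums, of 213880 to 1643742 transcripts, were fitted in edgeR 4.0.16 (R 4.3.3; TMM, filterByExpr, quasi-likelihood F test, library as a block), and p-values were adjusted over the 8373 genes tested. The 3 groups of a library come from the same library, which is why it is a block. Spike-in totals (at most 13 transcripts in a group) were too low to compare RNA content, which the planned design had included. CPM are TMM-scaled in the comparison of all cells and plain CPM of the sums under the stricter rules. Levels per cell are transcripts per 10000. Tables were handled in Python 3.11.15 with numpy 2.4.6, pandas 2.3.3 and scipy 1.17.1, and the count test was tested on simulated data.

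Named genes were the 8 with the largest change per direction past the threshold with 1 sign in every library, a fixed list of lineage genes, and members of the gene lists past the threshold. Gas1, Peg3, the genes named under the stricter rules and the Mesp1-rich and Foxa2-rich sets were chosen after their values were seen. Members, lists and tests were chosen with earlier results of these data known. Cells were picked by hand and doublets were not called, so whether a double-positive barcode held more than 1 cell was not tested. The deepest kept cell, of 206140 transcripts in library 2_9, was double-positive, and the deepest cell of the other groups held 148020. Chi-square comparisons of counts between the 3 libraries gave 3.41 to 8.82 per degree of freedom, so none was a second count of another. Alternatives were DESeq2 1.42.0, RLE size factors, no filter, no block, each library left out, observed identifiers, other limits on depth, visceral endoderm genes and transcripts per positive cell, thinning to 10000 transcripts and, added after seeing the data, leaving out cells over 30% mitochondrial or the 3 Mesp1-rich cells.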

Additional observations from a re-analysis of the deposited data

How the results depend on the processing

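Numbers of genes passing are given in the order double-positive against Mesp1-only, against Foxa2-only, against the midpoint, and Mesp1-only against Foxa2-only (2, 13, 3 and 69 with all cells). Without the replicate block they were 0, 0, 0 and 22, with 334, 372, 316 and 446 at an unadjusted p under 0.05. DESeq2 gave 1, 4, 2 and 26. No filter on low counts gave 28, 47, 9 and 136. No limit on visceral endoderm genes gave 4, 134, 5 and 235, and a limit of 1 per 10000 gave 0 for the first. Thinned cells gave 1, 1, 0 and 16. Positive from 2 transcripts gave 51, 0 and 1 for the first 3. Without the 3 Mesp1-rich cells, the first and second were 17 and 2. Cells of at least 20000 transcripts gave 0 for the first, and without cells over 30% mitochondrial it was 1. Leaving out cells above 3 times the library median depth removed library 2_9 and gave 6 for the first and 5 for the third. Leaving out 1 library gave 1 to 6, 5 to 23, 4 to 8 and 28 to 69. RLE size factors gave 2, 13, 3 and 67, and observed molecules 2, 13, 3 and 70.

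The number of double-positive cells was 9 from 2 transcripts on, 3 when cells were thinned before grouping, and 7 to 16 with 1 library left out (7 without 2_13). Median place, 0.58, was 0.15 from 2 transcripts on, 0.23 without the 3 Mesp1-rich cells and 0.42 to 0.68 with 1 library left out. Of 1303 values for 87 gene results, 970 kept direction and side of the threshold, 330 kept direction only and 3 reversed. From 2 transcripts on, Meis2 was at -0.13 against Foxa2-only cells and T at -0.30 from the midpoint. With no visceral endoderm limit, Cyp26a1 was at -0.74 between Mesp1-only and Foxa2-only cells. The cause of these changes was not tested.

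With 18 double-positive cells, 11 of them in 1 library, genes of few transcripts could not be compared. Cer1 and Hhex had 8 and 10 transcripts in the 9 sums together.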
